A study of Homo sapiens with 16 samples.

Results

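The effect of UNBS1450 on mRNA levels of U937 cells at 6 h was set against its effect at 3 h, gene by gene, on the 4 arrays labelled 6 h and the 4 labelled 3 h, which are 8 of the 16 arrays of the series. Members were taken by their time label alone. U937 is a human histiocytic lymphoma cell line of monocytic character, and some label fields spell it U397. At each time, cells given 20 nM UNBS1450, a hemi-synthetic cardenolide, were compared on two-colour Agilent arrays with a control culture of the same time point that did not receive the compound. The labels call the 4 arrays of a time biological replicates. In replicates 1 and 2 the treated RNA was labelled with Cy5, in replicates 3 and 4 with Cy3, and the sign of the latter was reversed, so that every value here is a log2 ratio of treated over control. A difference is always the mean log2 ratio at 6 h minus that at 3 h. The 4 arrays at 0 h, on which the methods give no treatment although the labels name the agent, and the 4 at 9 h entered the estimates of spread and dye effect and serve as a background. Because each time had its own control culture, a difference between 6 and 3 h holds the control cultures of both times as well as the treated ones. In bulk RNA, fewer cells of a type and less RNA per cell cannot be told apart.

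Cardiac glycosides bind the sodium/potassium pump, which moves sodium out of the cell and potassium in. When the pump is blocked, cell sodium climbs, potassium drops and calcium handling shifts, and protein synthesis, which needs potassium, slows. In leukemia and lymphoma lines such compounds cause apoptosis, a death programme gated by the BCL2 family of proteins. The study asked whether transcription changes in the first hours, before apoptosis sets in, and the 6 h against 3 h comparison covers the step between its first treated time points.

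No gene passed the test of a difference between 6 and 3 h after adjustment for multiple testing. Of 17329 genes, 0 (0%) passed a fold change of 1.3 with an adjusted p under 0.05 in limma, and the lowest adjusted p was 0.216. Without adjustment, at p under 0.05 and the same fold change, 185 genes (1.07%) were higher at 6 h and 418 (2.41%) were lower. Some alternatives did make calls. Robust regression called 625 genes, array weights 684, quantile normalization of the arrays 92, and leaving out replicate 2 called 640, or 617 when only its 6 h array was left out. Of the 625 genes called by robust regression, 429 were among the 603 genes with an unadjusted p, and of the 684 called with array weights, 470 were. The other alternatives called 0. Genes below are therefore given by their values, and none of their differences passed the main test.

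Array spread sets the scale for what follows. The median absolute difference over all genes was 0.10 on the log2 scale. Between replicates, same-numbered differences correlated across genes at 0.51 for replicates 1 and 3, 0.43 for 1 and 4, 0.41 for 3 and 4, and at 0.17 to 0.19 for replicate 2 with the others; genes are not independent and arrays of one orientation share their dye. Replicate 2 also had the narrowest differences, with a standard deviation over genes of 0.20 beside 0.22, 0.27 and 0.32 in replicates 1, 3 and 4. Against their own controls, 64 genes (0.369%) passed without adjustment on the 3 h arrays. The count was 147 (0.848%) for 6 h, compared with 112 (0.646%) for untreated cells, and after adjustment it was 0 for each of these 3 times.

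Most of the genes that were lower at 6 h than at 3 h without adjustment were also below 0 in untreated cells. Of the 418 genes lower at 6 than at 3 h, 406 (97.1%) also had a mean below 0 at 0 h, compared with 51.3% of all genes. Their median log2 ratio was −0.27 in untreated cells (0 h) and 0.18 after 3 h. It was −0.28 after 6 h and −0.11 after 9 h. The 3 h and 6 h medians follow from the choice of these genes. The 0 h and 9 h ratios were not part of the contrast, but all 16 arrays shaped the spread and dye effect behind its p, and the 9 h arrays also the choice of spot. The 0 h value was carried by the arrays with treated RNA in Cy5, where the medians of replicates 1 and 2 were −0.43 and −0.72, and replicates 3 and 4 had 0.02 and 0.04. At 6 h the medians of replicates 1 to 4 were −0.65, −0.13, −0.09 and −0.22, and at 3 h they were −0.13, 0.15, 0.35 and 0.31. The part of dye in these values was not tested beyond the dye coefficient of the fit.

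Among the 185 genes higher at 6 h, 159 (85.9%) had a mean above 0 at 0 h, against 48.7% of all genes. Their medians were 0.08 in untreated cells and −0.18 after 3 h. The medians after 6 and 9 h were both 0.26. By array, replicates 1 to 4 had medians of 0.18, 0.20, −0.02 and −0.07 in untreated cells, −0.15, 0.00, −0.25 and −0.30 after 3 h, and 0.26, 0.10, 0.23 and 0.45 after 6 h. The mean lay further from 0 at 6 h than at 3 h in 120 of the 185 genes that were higher and in 349 of the 418 that were lower. The same count over all genes is not given here. At 9 h, 106 of the 185 lay further up than at 6 h, beside 9268 of all 17329 genes, while 45 of the 418 lay further down. The 6 h values took part in the choice of these genes, which bears on each of these counts. All 4 same-numbered differences had one sign in 136 of the 185 and 406 of the 418, a count that the choice of these genes favours. Over all genes, 14.9% had 4 rises and 17.4% had 4 falls, and the numbers were not taken to pair the samples.

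**Figure D1:**
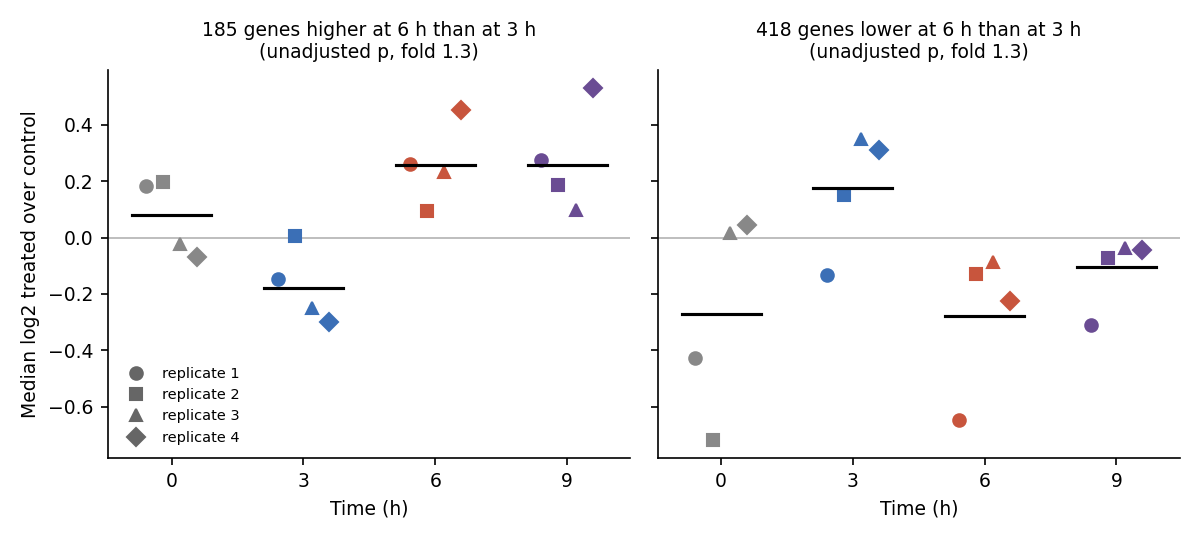
Median log2 ratio of treated over control (y axis) of the 185 genes higher and the 418 genes lower at 6 h than at 3 h without adjustment, on each of the 16 arrays by time (x axis, h). Symbols are replicates and bars the median of the fitted means. In the right panel the bars of 0, 3 and 6 h are at −0.27, 0.18 and −0.28.

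Genes with the lowest unadjusted p and 4 same-numbered differences of one sign are described first, 8 in each direction. All 16 had an adjusted p of 0.216. GNRHR2, the gene of a second gonadotropin-releasing hormone receptor that is not known to give a working receptor in humans, had the widest difference of these. Its log2 ratios in replicates 1 to 4 were 0.13, −0.06, 0.76 and 0.81 at 3 h, and −1.06, −0.35, −0.28 and −0.35 at 6 h. The times did not overlap, and the difference was −0.92 (standard error 0.16). At 0 h its mean was −0.22 and at 9 h −0.13.

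BRD2, a BET bromodomain protein that reads acetylated histones, had −0.24, −0.11, 0.55 and 0.44 at 3 h and −0.80, −0.50, 0.15 and −0.01 at 6 h. Every replicate was lower at 6 h, by 0.40 to 0.56, although the times overlapped because replicates 3 and 4 lay above replicates 1 and 2 at both. The difference was −0.45 (standard error 0.09), and a second spot of BRD2 gave −0.03. EMD, which encodes emerin of the inner nuclear membrane, had −0.33, 0.02, 0.45 and 0.81 at 3 h and −0.69, −0.36, −0.15 and 0.05 at 6 h, a difference of −0.53 (standard error 0.12). ZNF580, a zinc finger gene, had 0.09, 0.45, 0.42 and 0.33 at 3 h and −0.71, −0.10, −0.09 and −0.20 at 6 h, without overlap. The other 4 were RHBDD3 (−0.47), TRMT2A (−0.46), which encodes a tRNA methyltransferase, REPIN1 (−0.45) and GPC1 (−0.42), which encodes the cell surface proteoglycan glypican-1. The other spot of REPIN1 stood at 0.14. At 0 h the means of ZNF580, RHBDD3, TRMT2A and REPIN1 were −0.26, −0.22, −0.275 and −0.23. Their 6 h means lay near these, at −0.28, −0.28, −0.32 and −0.29. BRD2, EMD and GPC1 had −0.12, −0.0027 and −0.11 at 0 h and −0.29, −0.29 and −0.31 at 6 h.

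The 8 genes higher at 6 h have varied roles. LCORL, a transcriptional regulator, had −0.20, 0.23, −0.41 and −0.58 at 3 h and 0.31, 0.26, 0.38 and 0.43 at 6 h. The 6 h arrays were alike and the 3 h arrays spread, and the difference was 0.58 (standard error 0.12) on the spot used and 0.07 on its lowest spot. SMCHD1, which keeps the inactive X chromosome and some imprinted genes silent, had −0.02, 0.06, −0.38 and −0.38 at 3 h and 0.34, 0.23, 0.19 and 0.32 at 6 h, and its 3 spots gave 0.33 to 0.45. STAG2, a subunit of the cohesin ring, had −0.36, −0.11, −0.20 and −0.37 at 3 h and 0.10, 0.02, 0.26 and 0.26 at 6 h, a difference of 0.42 (standard error 0.09) with 0.79 on the other spot. TOP2B, topoisomerase II beta, had −0.21, 0.03, −0.24 and −0.26 at 3 h against 0.14, 0.16, 0.34 and 0.19 at 6 h. LCORL, SMCHD1, STAG2 and TOP2B did not overlap between the times, nor did ZDHHC13 and ENTPD4. Over all 17329 genes, 1114 did not overlap. DIS3, the nuclease of the RNA exosome, differed by 0.38, MANEA, a Golgi mannosidase, by 0.39, ZDHHC13, a palmitoyltransferase, by 0.40 and ENTPD4, a nucleotidase of the Golgi and lysosome, by 0.43. The mean of their spots gave 0.24 for DIS3, 0.32 for MANEA, 0.24 for ZDHHC13 and 0.28 for ENTPD4. ZDHHC13 had a mean of 0.18 at 0 h and 0.21 at 6 h, and SMCHD1 0.17 and 0.27. LCORL, STAG2, TOP2B, DIS3, MANEA and ENTPD4 had 0 h means of 0.10, 0.09, 0.05, 0.07, 0.03 and 0.03. Their 6 h means were 0.34, 0.16, 0.21, 0.18, 0.19 and 0.29. With array weights, all 16 genes had an adjusted p of 0.019 or 0.024. They had been picked for a low p on these same arrays, which favours such values, so this is not separate evidence. ZDHHC13, with a difference of 0.37 under array weights, fell short of the minimum fold change and was not called there.

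**Figure D2:**
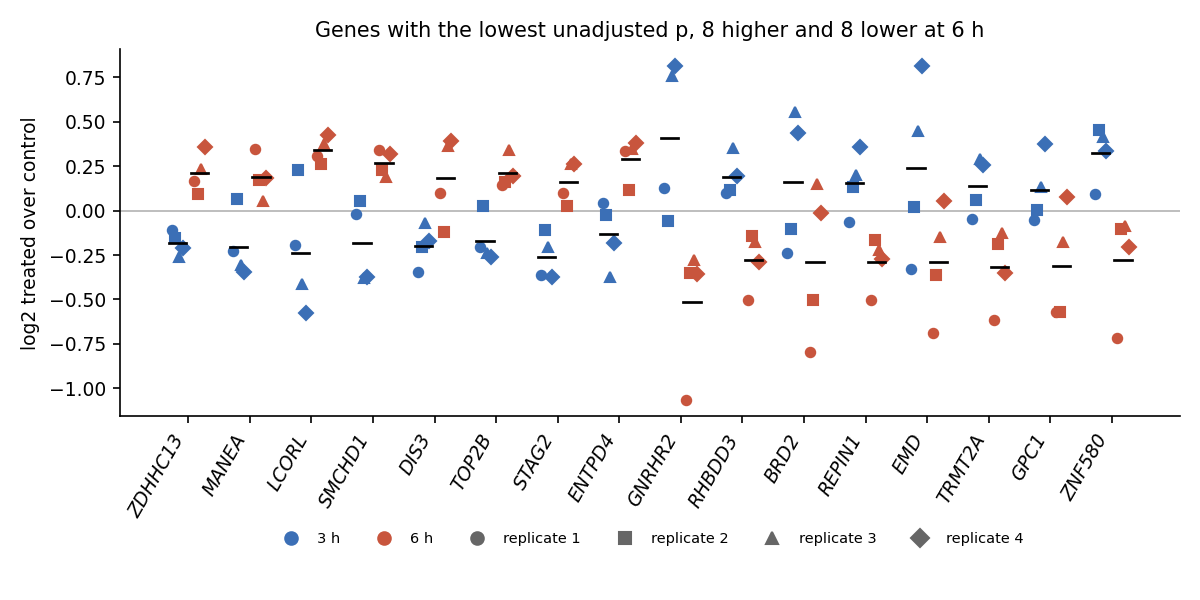
Log2 ratio of treated over control (y axis) for the 8 genes higher and 8 genes lower at 6 h with the lowest unadjusted p (x axis), at 3 h (blue) and 6 h (red). Symbols are replicates, one array each, and bars the mean of 4. GNRHR2 has the widest gap, with a difference of −0.92.

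The genes of the next paragraphs were named whatever their values, but with earlier results of these data known, so their course up to 9 h is a description. CLK4 and CLK1 are kinases that phosphorylate SR splicing factors. CLK4 had −0.05, 0.05, −0.08 and 0.12 at 3 h and 0.58, 0.22, 0.26 and 0.82 at 6 h, with no overlap. Its means over the 4 times were 0.04, 0.01, 0.47 and 0.68, and the difference of 0.46 (standard error 0.15) had an adjusted p of 0.217. CLK1 had −0.35, 0.24, −0.10 and 0.19 at 3 h and 0.31, 0.16, 0.46 and 0.87 at 6 h, with replicate 2 slightly lower at 6 h. Its difference was 0.45 (adjusted p = 0.294), and 0.30 over the mean of its spots. The remaining kinases of the CLK, SRPK and DYRK list did not pass without adjustment in either direction. Of 12 measured, 2 (16.7%) were higher without adjustment, namely CLK1 and CLK4, beside 1.07% of all genes. The median difference was −0.04, with 5 of the 12 above 0. Medians of the list's same-numbered differences were 0.04, 0.02, 0.03 and 0.04 in replicates 1 to 4.

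EIF5, which stimulates GTP hydrolysis by eIF2 when ribosomes find the start codon, had 0.41, 0.01, 0.20 and −1.19 at 3 h and −0.39, −0.20, −0.66 and −1.45 at 6 h. Replicate 4 was already low at 3 h, and all replicates were lower at 6 h. The difference was −0.53 (standard error 0.23, adjusted p = 0.298), and ran from −0.79 without the 3 h array of replicate 4 to −0.28 without that of replicate 3, with −0.37 without the 6 h array of replicate 4. The mean was −1.63 at 9 h. EIF1B, a homolog of the start codon factor eIF1, differed by 0.47 (standard error 0.20, adjusted p = 0.289), and by 0.25 without the 6 h array of replicate 4. Among 45 measured translation initiation factors, EIF1B (2.22%) passed upwards without adjustment, beside 1.07% of all genes, and 4 (8.89%) passed downwards, beside 2.41%. Besides EIF5, these were EIF4B, EIF4G1 and EIF5A, with differences of −0.51, −0.50 and −0.49. The 3 had 0 h means of −0.15, −0.31 and −0.19, so that their log2 ratios lay below 0 without treatment as well. EIF4G1 and EIF5A had 6 h means of −0.41 and −0.22, near their 0 h ratios. EIF5 had 0.11 at 0 h and −0.67 at 6 h.

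For 5 further genes replicate 4 decided the size of the difference. SNX5, a sorting nexin of endosomes, had 0.24, 0.15, −0.07 and 0.15 at 3 h and 0.44, 0.38, 0.36 and 1.95 at 6 h. The times did not overlap. The difference of 0.66 (standard error 0.31, adjusted p = 0.336) was 0.28 without replicate 4 and 0.37 over the mean of its 2 spots, of which the other gave 0.07. TXNIP, the thioredoxin-binding protein induced through the glucose sensor MondoA, had 0.15, 0.20, −0.20 and 0.29 at 3 h and 0.58, 0.31, 0.13 and 2.13 at 6 h, a difference of 0.68 (standard error 0.41, adjusted p = 0.466) that became 0.29 without replicate 4. DDIT4 (REDD1), which restrains mTOR complex 1 when oxygen or energy runs short, had 0.07, 0.07, −0.04 and −0.43 at 3 h and −0.44, −0.14, −0.61 and −1.77 at 6 h. Its difference was −0.65 (standard error 0.29, adjusted p = 0.305), −0.43 without replicate 4 and −0.35 over the mean of its 2 spots, of which the other gave −0.04. ID1, an inhibitor of basic helix-loop-helix factors, stood between −0.15 and −0.01 in replicates 1 to 3 at 6 h and at −1.32 in replicate 4, and its difference of −0.44 (adjusted p = 0.648) was −0.12 without that replicate and −0.20 over the mean of its spots.

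MYC, a growth-promoting transcription factor, had −0.28, −0.17, −0.04 and −0.22 at 3 h and −0.09, −0.15, 0.29 and −1.51 at 6 h. Its difference was −0.19 (standard error 0.44, adjusted p = 0.893) and turned to 0.18 without replicate 4. TLR2, a receptor for bacterial lipoproteins on monocytes, was less tied to one replicate. It had −0.05, 0.02, −0.18 and −0.24 at 3 h and 0.58, 0.03, 0.35 and 0.75 at 6 h. Its difference of 0.54 (standard error 0.13, adjusted p = 0.216) ranged from 0.39 to 0.72 with single arrays or replicates left out.

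**Figure D3:**
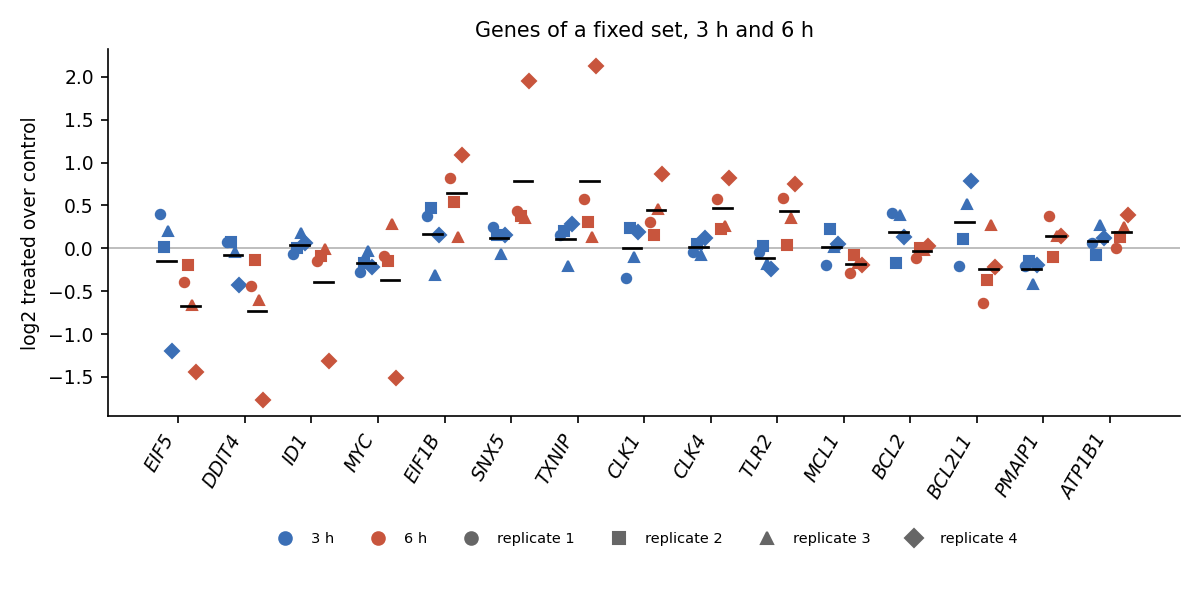
Log2 ratio of treated over control (y axis) at 3 h (blue) and 6 h (red) for the 15 measured genes of a set named whatever their values (x axis). Symbols are replicates, one array each, and bars the mean of 4. Replicate 4 at 6 h lies away from the other arrays for SNX5 (1.95), TXNIP (2.13), DDIT4 (−1.77), ID1 (−1.32) and MYC (−1.51).

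BCL2 family members, which decide whether mitochondria release cytochrome c, differed in direction, with 12 above 0 and 16 below. Of 28 measured, 1 (3.57%) passed without adjustment in each direction, beside 1.07% of all genes upwards and 2.41% downwards, and the median difference was −0.01. Medians of the same-numbered differences were small and below 0, at −0.04, −0.04, −0.02 and −0.03 in replicates 1 to 4. MCL1, the short-lived survival protein, had −0.20, 0.22, 0.01 and 0.04 at 3 h and −0.29, −0.07, −0.17 and −0.19 at 6 h. All 4 replicates were lower at 6 h on the spot used, the difference was −0.20 (standard error 0.08, adjusted p = 0.268), and the times overlapped. On that spot its mean was already −0.12 in untreated cells at 0 h, with 0.02 at 3 h and −0.18 at 6 h. Its 3 spots ran from −0.20 to 0.22, and their mean gave 0.03. BCL2L1, which encodes the survival protein Bcl-xL and its short pro-apoptotic form, had −0.21, 0.11, 0.52 and 0.79 at 3 h and −0.63, −0.37, 0.27 and −0.21 at 6 h. Its difference was −0.54 (standard error 0.12, adjusted p = 0.216), with a 0 h mean of −0.22 and a spread of −0.54 to 0.10 over its 11 spots. PMAIP1, which encodes the MCL1 antagonist Noxa, had −0.21, −0.15, −0.42 and −0.20 at 3 h and 0.37, −0.10, 0.14 and 0.14 at 6 h, without overlap, and its difference was 0.38 (standard error 0.17, adjusted p = 0.306). BCL2 itself had a difference of −0.22 (standard error 0.10, adjusted p = 0.330) on the spot used and 0.07 over the mean of its spots. CASP8, the initiator caspase of death receptors, differed by 0.38 (standard error 0.10, adjusted p = 0.216) on the spot used and by −0.13 over the mean of its 12 spots.

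ATP1B1, the beta subunit of the pump, had 0.06, −0.08, 0.27 and 0.12 at 3 h and 0.00, 0.13, 0.25 and 0.39 at 6 h, a difference of 0.10 (standard error 0.11, adjusted p = 0.724). Of 32 pump and cation transporter genes measured, 2 (6.25%) passed downwards without adjustment, beside 2.41% of all genes, and 0 upwards, beside 1.07%. The former were FXYD5, a pump modulator, at −0.40 and ATP2A3, a calcium pump of the endoplasmic reticulum in blood cells, at −0.40, and both had means below 0 at 0 h (−0.30 and −0.23). SGK1, a kinase that upholds sodium transport, had means of −0.09, 0.42 and 0.78 after 3, 6 and 9 h, and its difference was 0.51 (standard error 0.26, adjusted p = 0.379).

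Genes of mitosis and G2/M had 6 members higher at 6 h without adjustment, the highest number among lists of unequal size, while smaller lists, such as the CTLH ubiquitin ligase, had higher shares. Of 59 measured, 6 (10.2%) were higher, beside 1.07% of all genes, and 2 were lower; 42 had a difference above 0 and the median was 0.12, beside 0.00 over all genes. Medians of the same-numbered differences were 0.15, 0.04, 0.21 and 0.13 in replicates 1 to 4. Several other lists also had all 4 above 0, among them DNA replication and G1/S, with 0.06, 0.02, 0.12 and 0.13. That list of 57 genes had a median difference of 0.06. Over the 4 times, the median log2 ratio of the mitosis and G2/M list was 0.03, −0.06, 0.03 and 0.06. The low value was thus at 3 h, where replicates 1 to 4 had medians of −0.12, −0.01, −0.11 and −0.06.

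The 6 higher members encode proteins that move, fold or attach chromosomes or build the spindle. KIF18A, a kinesin that shortens the swings of chromosomes at the spindle, had −0.27, 0.00, −0.41 and −0.35 at 3 h and 0.32, 0.12, 0.22 and 0.53 at 6 h. These did not overlap, and the difference was 0.55 (standard error 0.15, adjusted p = 0.216). SMC4, a subunit of condensin, had −0.62, −0.07, −0.26 and −0.41 at 3 h and 0.02, −0.11, 0.35 and 0.32 at 6 h, a difference of 0.48 (standard error 0.13, adjusted p = 0.216). CENPE, a kinetochore motor, differed by 0.52, KIF20B by 0.50, CENPF by 0.43 and ASPM, a spindle pole protein, by 0.40. PLK1, the mitotic kinase, and CDC20, the activator of the anaphase-promoting complex, went the other way. PLK1 had −0.08, 0.40, 0.49 and 0.31 at 3 h and −0.89, −0.06, −0.14 and −0.52 at 6 h, a difference of −0.68 (standard error 0.22, adjusted p = 0.217), and CDC20 had −0.48 (adjusted p = 0.300). Their 0 h means were −0.43 and −0.28.

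Many mitotic genes carry a cell cycle homology region near their start site, with the core TTTGAA, which is known to bind the DREAM repressor and the MuvB complexes. Promoter sequences of RefSeq on GRCh38.p14, from 250 bases before to 50 after the start, were matched by gene identifier for 52 of the 59 genes. TTTGAA or its reverse complement TTCAAA, searched without regard to overlap with other motifs, occurred in 37 of these (71.2%), in 1560 of 13676 measured genes with such a sequence (11.4%) and in 15.4% of all 27305 promoters of the table. Within the list, the median difference was 0.15 with a match and 0.05 without, and over all measured genes 0.03 and 0.00. The promoters of 3 genes are shown because their genes were among the 6 higher members and hold a match, which is printed in capitals. A match is a description of the letters and not a binding site.
SMC4 promoter, chr3:160399400-160399699, strand +: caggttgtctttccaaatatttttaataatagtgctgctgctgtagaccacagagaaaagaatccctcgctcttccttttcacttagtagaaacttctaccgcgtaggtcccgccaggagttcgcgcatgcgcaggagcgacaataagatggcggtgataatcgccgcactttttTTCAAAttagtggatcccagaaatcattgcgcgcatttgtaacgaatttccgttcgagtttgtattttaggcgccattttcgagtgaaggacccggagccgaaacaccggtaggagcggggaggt
KIF18A promoter, chr11:28108107-28108406, strand -: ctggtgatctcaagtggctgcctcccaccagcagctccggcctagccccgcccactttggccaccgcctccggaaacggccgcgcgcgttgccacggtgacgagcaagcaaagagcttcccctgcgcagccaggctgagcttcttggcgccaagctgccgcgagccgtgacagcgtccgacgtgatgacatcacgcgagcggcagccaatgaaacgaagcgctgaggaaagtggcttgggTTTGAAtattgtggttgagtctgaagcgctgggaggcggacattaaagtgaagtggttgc
KIF20B promoter, chr10:89701340-89701639, strand +: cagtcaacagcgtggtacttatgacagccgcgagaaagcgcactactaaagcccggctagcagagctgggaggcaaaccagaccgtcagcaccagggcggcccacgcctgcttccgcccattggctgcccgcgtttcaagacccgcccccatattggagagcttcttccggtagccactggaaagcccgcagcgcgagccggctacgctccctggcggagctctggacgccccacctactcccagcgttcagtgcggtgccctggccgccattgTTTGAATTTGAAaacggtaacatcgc
In KIF20B 2 matches follow each other directly. The same-numbered differences of KIF20B were 0.61, −0.14, 0.46 and 1.07.

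CTLH ubiquitin ligase genes, whose complex in yeast degrades gluconeogenic enzymes, had a median difference of 0.13 over 11 genes, of which 2 (18.2%) were higher without adjustment, beside 1.07% of all genes. MKLN1, the muskelin subunit, had −0.18, −0.28, −0.16 and −0.32 at 3 h and 0.01, −0.05, 0.41 and 0.65 at 6 h, a difference of 0.49 (standard error 0.16, adjusted p = 0.216). ARMC8 had 0.01, 0.02, −0.09 and 0.09 at 3 h and 0.28, 0.21, 0.28 and 1.02 at 6 h, a difference of 0.44 (standard error 0.17, adjusted p = 0.258). Neither overlapped between the times. ARMC8 had 0.71 at 9 h and MKLN1 0.29. MAEA, a catalytic subunit, had −0.34.

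In lists of protein synthesis genes, all members that passed without adjustment, other than EIF1B above, were lower. Of 77 cytosolic ribosomal protein genes 14 had a difference above 0, with a median of −0.085. In this list 0 passed in either direction without adjustment, beside 1.07% of all genes upwards and 2.41% downwards. The medians of replicates 1 to 4 were −0.17, −0.03, −0.23 and 0.07. Among 19 cytosolic tRNA synthetases, which charge tRNAs with amino acids, 3 (15.8%) passed downwards beside 2.41% of all genes, and the median was −0.13, with same-numbered medians of −0.0067, −0.014, 0.027 and −0.31, of which replicate 4 alone lay far below 0. YARS1 and VARS1 had −0.46 and −0.43, with 0 h means of −0.33 and −0.26. Of 87 ribosome biogenesis factors 7 (8.05%) passed downwards and 0 upwards, while the median was 0.01. NOC2L, a nucleolar complex protein, had −0.44, 0.11, 0.63 and 0.57 at 3 h and −1.02, −0.39, 0.17 and −0.05 at 6 h, a difference of −0.54 (standard error 0.14, adjusted p = 0.216), with −0.40 at 0 h. Replicate 4 set the medians of this list apart at 6 h, where it had −0.24 and the others −0.04 to −0.01.

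Targets of ATF4, the factor that restores amino acid supply under stress, had 3 of 39 members (7.69%) lower, beside 2.41% of all genes, and 0 higher, beside 1.07%, with a median of −0.05. SLC7A5, a transporter of large amino acids, differed by −0.45 (standard error 0.17, adjusted p = 0.245) and stood at −0.23 at 0 h and −0.66 at 9 h. In the mTOR list 3 of 23 (13%) were lower, beside 2.41% of all genes. They were DDIT4, which is also among the ATF4 targets, and the mTOR complex 1 partners AKT1S1 (−0.56) and MLST8 (−0.38). AKT1S1 and MLST8 both had a 0 h mean of −0.31, with 6 h means of −0.32 and −0.25. Metabolic enzymes such as PKM, the last step of glycolysis, and FASN, which builds fatty acids, had −0.60 and −0.56, with 0 h means of −0.33 and −0.42. Of 6 small nucleolar and Cajal body RNAs 2 (33.3%) were lower, SNORA70 at −0.43 and SCARNA17 at −0.40. SNORA70 had a 0 h mean of −0.24. SCARNA17 had −0.02, −0.06, −0.47 and −0.92 at 0, 3, 6 and 9 h.

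Of 27 NF-kB genes 3 (11.1%) passed downwards, beside 2.41% of all genes, among them RELA, the p65 subunit. RELA had 0.06, 0.15, 0.23 and 0.20 at 3 h and −0.41, −0.02, −0.11 and −0.54 at 6 h, without overlap, and differed by −0.43 (standard error 0.12, adjusted p = 0.216), with −0.25 at 0 h. Of 31 monocyte and granule genes 3 (9.68%) passed downwards, among them SPI1, the myeloid master regulator PU.1 (−0.42), and CEBPE (−0.45), and the median was −0.04. SPI1 and CEBPE had 0 h means of −0.31 and −0.17. Of 35 immediate early genes and 12 MAP kinase phosphatases 0 passed in either direction, beside 1.07% of all genes upwards and 2.41% downwards. T cell, B cell, erythroid and epithelial and muscle markers, which should be low in this line, had medians of 0.01, −0.13, −0.04 and −0.04 over 15, 10, 16 and 20 genes, with 0 members past the unadjusted threshold. At the shares of all genes, lists of these sizes would hold few such members. Only ratios were used, so levels of lineage markers, which would check the cell type, were not analysed here. Replication-dependent and variant histones had the widest range between replicates of the 47 lists. Their 77 genes had a median of 0.06, with same-numbered medians of −0.33, 0.14, −0.23 and 0.55.

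**Figure D4:**
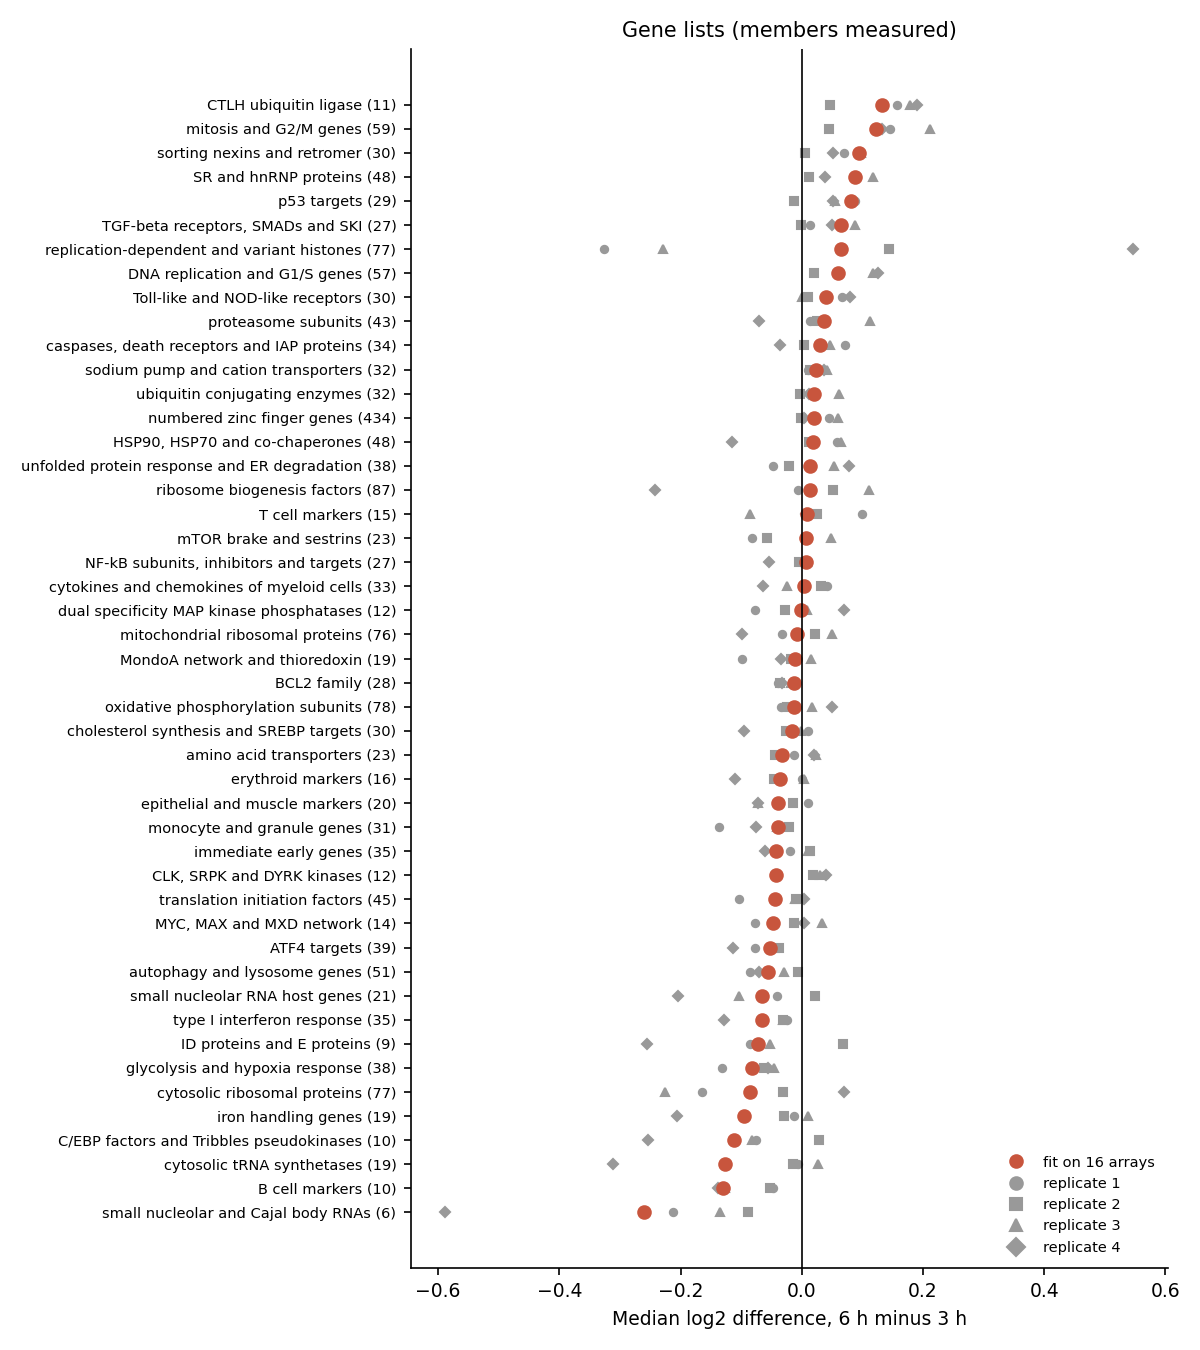
Median log2 difference between 6 and 3 h (x axis) of 47 gene lists (y axis, with the number of genes measured). Red points come from the fit on 16 arrays, grey symbols are the medians of same-numbered differences, and the line is the median of all genes. Genes of mitosis and G2/M lie at 0.12 with all 4 replicates above 0, as in several other lists, whereas histones run from −0.33 to 0.55.

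Differences also followed gene length, which was looked at after the values had been seen and is given without a test. Genomic length from RefSeq was matched for 17305 genes, which were split by length into 4 classes of equal size. In the shortest class, up to 9.24 kb, the median difference was −0.034 and 39.2% of genes lay above 0. In the longest class, from 67.1 kb, it was 0.039 and 61.3%. Of the shortest class 6 genes (0.139%) passed upwards without adjustment and 125 (2.89%) downwards, and of the longest 95 (2.20%) and 44 (1.02%). The 185 higher genes had a median length of 68.8 kb and the 418 lower ones 16.1 kb, beside 25.8 kb for all genes.

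The longest minus the shortest class came to 0.072 in the fit, and to 0.066, 0.023, 0.11 and 0.099 in replicates 1 to 4. By array it was −0.016, −0.0063, −0.078 and −0.067 at 3 h, and 0.034, 0.011, 0.035 and 0.031 at 6 h. All 3 h arrays lay below 0 and all 6 h and 9 h arrays above it. The 0 h arrays lay on both sides, at 0.026, 0.072, −0.013 and 0.0098. At 3 h replicates 3 and 4, with treated RNA in Cy3, lay lowest. Whether RNA quality, labelling or dye moved with them was not tested.

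**Figure D5:**
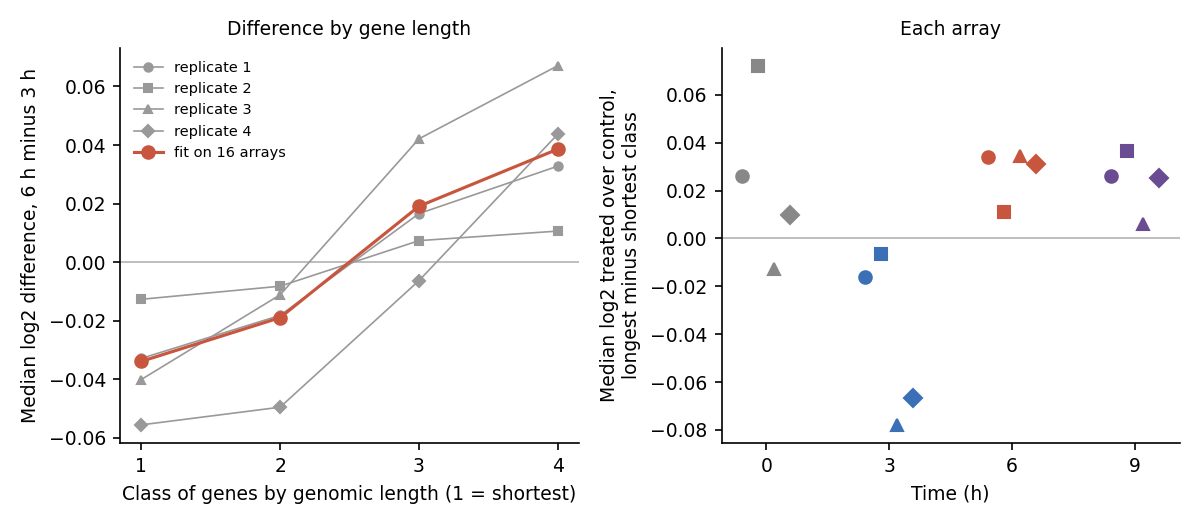
Left, median log2 difference between 6 and 3 h (y axis) by class of genomic length (x axis, 1 is the shortest), from the fit (red) and from same-numbered arrays (grey). Right, median log2 ratio of the longest minus the shortest class (y axis) on each array by time (x axis, h), where the 3 h arrays lie from −0.078 to −0.0063 and the 6 h arrays from 0.011 to 0.035.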

How the data were processed

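The authors read spot signals with GenePix Pro and normalized them in limma, by normexp with an offset of 50, loess within arrays and Aquantile between them. What was deposited are the authors' log2 ratios of Cy5 over Cy3, a direction taken from the dye labels, before the dye swap is undone. Intensities, detection and spot weights were not used here, so no dim spot was removed. Values were complete for 40563 of 45220 spots. The platform annotation does not list 11507 of them and gives several symbols for 86, which left 28970 spots of 17329 genes.

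After turning replicates 3 and 4, limma 3.58.1 in R 4.3.3 (lmFit, eBayes) fitted all 16 arrays with a coefficient per time and a gene-specific dye coefficient (11 residual and 3.70 prior degrees of freedom). The contrast was 6 h minus 3 h, with Benjamini-Hochberg adjustment over all spots with a single gene. Where a gene had several spots, the highest F-statistic for 3, 6 and 9 h chose one. With 4 arrays per time the precision is limited. The fit was tried on simulated arrays with independent noise, a dye effect and known changes. These held no outlying arrays, so they do not show how the fit behaves with such arrays. The outcome is not given here. Named genes were, in each direction, called genes or, failing these, the 8 with the smallest p at a fold of 1.3 with all 4 same-numbered differences of one sign, and a set named whatever their values. Up to 2 members per list, and other list members, were named after their values were seen. Members and lists were chosen with earlier results of these data known. Alternatives covered the dye coefficient, a replicate block, the arrays fitted, spots, regression, weights, scaling, the fold and single arrays. Genes were matched to RefSeq by identifier, with Python 3.11.15 and pandas 2.3.3.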

Additional observations from a re-analysis of the deposited data

Results flagged for a closer look

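Single arrays far from the other 3 of their time were looked for in 156 groups, 2 times for each gene list and for each gene named by smallest p or whatever its values, and 10 were found. Chance gives about 1 in 20 groups. At 6 h, replicate 4 had a log2 ratio of 1.95 for SNX5, with the others at 0.36 to 0.44, and of −1.32 for ID1, with the others at −0.15 to −0.01. GNRHR2 had −1.06 in replicate 1 at 6 h, with the others at −0.35 to −0.28. ENTPD4 had 0.11 in replicate 2 at 6 h, with the others at 0.33 to 0.38.

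Among list medians at 6 h, replicate 4 had −0.18 for ATF4 targets, where the others lay at −0.03 to −0.02, and −0.24 for ribosome biogenesis factors, where they lay at −0.04 to −0.01. Genes of NF-kB subunits, inhibitors and targets had 0.065 in replicate 3 at 6 h, with the others at −0.039 to −0.022, and −0.088 in replicate 1 at 3 h, with the others at 0.019 to 0.040. At 3 h, amino acid transporters had 0.071 in replicate 2, with the others at −0.035 to −0.022, and C/EBP factors and Tribbles pseudokinases had 0.053 in replicate 4, with the others at −0.057 to −0.052.

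B cell markers had a median above 0 on each of the 4 arrays at 3 h and below 0 on each of the 4 at 6 h, with a median difference of −0.13 over 10 genes. That difference was not tested.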

How the results depend on the processing

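The count of genes that differed after adjustment was 0 in the fit and moved to 625 with robust regression, 684 with array weights and 92 with quantile normalization. Leaving out replicates or single arrays gave 0 to 640. It was 0 with no dye coefficient, with the mean of all spots, with the 8 arrays alone, with centred or scaled arrays, with no minimum fold and with p adjusted over all spots. The unadjusted counts of 185 higher and 418 lower genes became 79 and 273 with the mean of all spots and 1387 and 1889 with no minimum fold, and quantile normalization gave 282 higher. With arrays left out they ran from 68 to 475 and from 188 to 920. The cause was not tested.

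Same-numbered arrays at 3 and 6 h deviated together at correlations of 0.62, 0.19, 0.40 and 0.32, which include their shared dye orientation, and at 0.18, 0.07, 0.18 and −0.10 once the dye effect was removed, so the numbers were not taken to pair the samples. A fixed replicate block called 0 genes, with 206 higher and 423 lower without adjustment, and a random block 0, with 190 and 420.

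Of 86 named genes 82 kept their sign under every alternative. Many were named for passing the unadjusted threshold or for 4 same-numbered differences of one sign, and several alternatives leave the difference unchanged. The choice of genes therefore favours this count. The mean of all spots turned MCL1 to 0.033, BCL2 to 0.069 and CASP8 to −0.13. Robust regression turned MYC to 0.10, and leaving out replicate 4 or its 6 h array to 0.18 and 0.17, within a range of −0.49 to 0.18 over all arrays left out. The length difference between the longest and shortest genes, with alternatives chosen after seeing the data, was 0.062 with the mean of all spots and 0.064 to 0.084 with replicates left out.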
